A study of Mus musculus with 28 samples.

Results

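The proteasome subunit genes were taken as all genes whose symbol begins with Psma, Psmb, Psmc, Psmd, Psme, Psmf or Psmg followed by a number, measured by probe sets carrying 1 symbol on both array types of the study, without the immunoproteasome subunits Psmb8, Psmb9 and Psmb10. The rule found 45 genes among the 18974 measured on both array types. Of these, 15 encode the core particle (8 alpha-ring and 7 beta-ring genes), 17 the regulatory particle (9 of the base and 8 of the lid), 4 the alternative activators and an inhibitor, and 7 assembly chaperones. The last 2, Psmc3ip and Psme3ip1, carry a matching symbol but encode interacting proteins and not subunits, and their own values are given at the end. They are counted in the tallies over 45 genes. Psmb5 and Psme2 did not enter because their probe sets on the heart and gastrocnemius array type carry several symbols.

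Tissues came from female mice of the inbred strain C57BL/6J, aged 24 weeks (6 months) or 103 weeks (24 months). All animals were group housed on standard chow and killed after an overnight fast, so every group was fasted, and no other treatment or allele is named in the labels. Total RNA of liver and quadriceps, a thigh muscle, was hybridised to 1 array type with 3 arrays per age, and that of heart and gastrocnemius, a calf muscle, to another with 4 arrays per age, 28 arrays in all. Whether each array held RNA of its own animal, and whether the tissues were taken from shared animals, is not stated in the labels. The p-values therefore reflect only how far these arrays scatter, which may be technical. Values are log2 expression, on which a difference of 1 is a doubling, and a level on one array type cannot be set against a level on the other or a level of another gene.

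The proteasome degrades proteins that carry ubiquitin chains. Its core particle is a barrel in which alpha rings gate the entrance and beta rings hold the catalytic sites, provided in most tissues by Psmb5, Psmb6 and Psmb7. The regulatory particle sits on the barrel: the ATPases of its base (Psmc1 to Psmc6) unfold substrates, the base subunits Psmd2 and Psmd4 bind ubiquitin chains or their shuttles, and the lid holds Psmd14, which removes the chains. In muscle this system carries out much of the breakdown of contractile proteins, and in liver it turns over enzymes and secretory proteins that fail to fold. The transcription factor Nfe2l1 is known to raise proteasome subunit genes together through antioxidant response elements in their promoters.

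Because that element is the best known common control of these genes, promoters (250 bases before to 50 after the annotated start, RefSeq, GRCm38.p6) were searched on both strands for its core TGACNNNGC. A promoter was matched by symbol for 37 of the 45 genes (all but Psma8, Psmb1, Psmb2, Psmb7, Psmc3, Psmd3, Psmd7 and Psmg2), and the core was found in 5 of them (13.5%), against 14% of the promoters of 27025 genes. The looser core TGANNNNGC, of which the stricter is a subset, was found in 21 (56.8%) against 45%, the GC box GGGCGG in 22 (59.5%) against 38.2%, the CCAAT box in 15 (40.5%) against 41.1%, and the heat shock element GAANNTTC in 1 (2.7%, Psmf1) against 9.04%. These are matches of letters and not binding sites. The stretches below surround the stricter core in the catalytic subunit Psmb6, the base ATPase Psmc6, the lid subunit Psmd12 and the base chaperone Psmd9, and the looser core in Psmg1 and Psmg4, the core assembly chaperones that were higher in liver than in quadriceps and in heart than in gastrocnemius under all 3 scalings tried. Each is written 5′ to 3′ on the gene's strand and ends at or before the start, with the match in capitals, which reads as the reverse complement where the match lies on the other strand.
Psmb6 (chr11:70525318-70525356, plus strand, match 9 bases before the start): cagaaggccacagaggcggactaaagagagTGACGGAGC
Psmc6 (chr14:45329574-45329635, plus strand, match 227 bases before the start, other strand): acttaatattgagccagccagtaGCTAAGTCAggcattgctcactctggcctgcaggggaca
Psmd12 (chr11:107479278-107479319, plus strand, match 247 bases before the start, other strand): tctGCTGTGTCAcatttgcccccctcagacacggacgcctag
Psmd9 (chr5:123228129-123228189, plus strand, match 31 bases before the start): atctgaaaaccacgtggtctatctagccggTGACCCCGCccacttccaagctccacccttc
Psmg1 (chr16:95991160-95991210, minus strand, match 238 bases before the start): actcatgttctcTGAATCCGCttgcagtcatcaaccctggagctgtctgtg
Psmg4 (chr13:34162907-34162963, plus strand, match 27 bases before the start, other strand): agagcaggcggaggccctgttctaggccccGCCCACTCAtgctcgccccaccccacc
The fifth gene with the stricter core was Psme4, where the match reached past the start and so is not printed. Nfe2l1 itself did not pass the test between ages in any tissue (limma, adjusted p from 0.404 in liver to 0.988 in heart), with differences of 24 minus 6 months of -0.10 in liver, 0.14 in quadriceps, -0.03 in heart and 0.04 in gastrocnemius.

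The labelled tissues were checked by the mean log2 level of their defining markers in each array. The 7 hepatocyte genes lay between 13.67 and 13.74 in liver, the 8 skeletal muscle fibre genes at 13.53 to 13.63 (quadriceps) and 13.01 to 13.18 (gastrocnemius), and the 7 cardiomyocyte genes between 11.42 and 11.85 in heart. No 2 arrays of a type held the same values, at least 96.7% of the probe sets differing between any 2. Over all genes, limma (adjusted p under 0.05) called 65 of 19928 genes between ages in liver (0.326%), 1 in quadriceps (0.00502%), 2 of 30063 in heart (0.00665%) and 3 in gastrocnemius (0.00998%). Few arrays per age limit the precision: the median standard error of a proteasome gene's age difference was 0.083 in liver, 0.072 in quadriceps, 0.048 in heart and 0.053 in gastrocnemius.

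In liver, most proteasome genes had lower means at 24 months, but limma called 0 of the 45 (0.326% of all genes were called), with 23 lower and 2 higher at an unadjusted p under 0.05. The background at that unadjusted threshold was 14.4% of all genes lower and 18.4% higher. The mean was lower in 39 of the 45 genes (86.7%) and higher in 6, against 45.1% and 54.3% of all genes, and the median difference was -0.19 on the log2 scale against 0.03 over all genes. The 3 values at 24 months lay wholly below those at 6 months in 30 genes and wholly above in 2, against 17.4% and 18.7% of all genes. The 6 higher genes include both that match the symbol pattern alone, so that 39 of the 43 others were lower. The 39 genes are not independent of each other, since they were measured on the same 6 arrays. In bulk tissue, fewer cells of a type and less RNA per cell cannot be told apart.

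**Figure D1:**
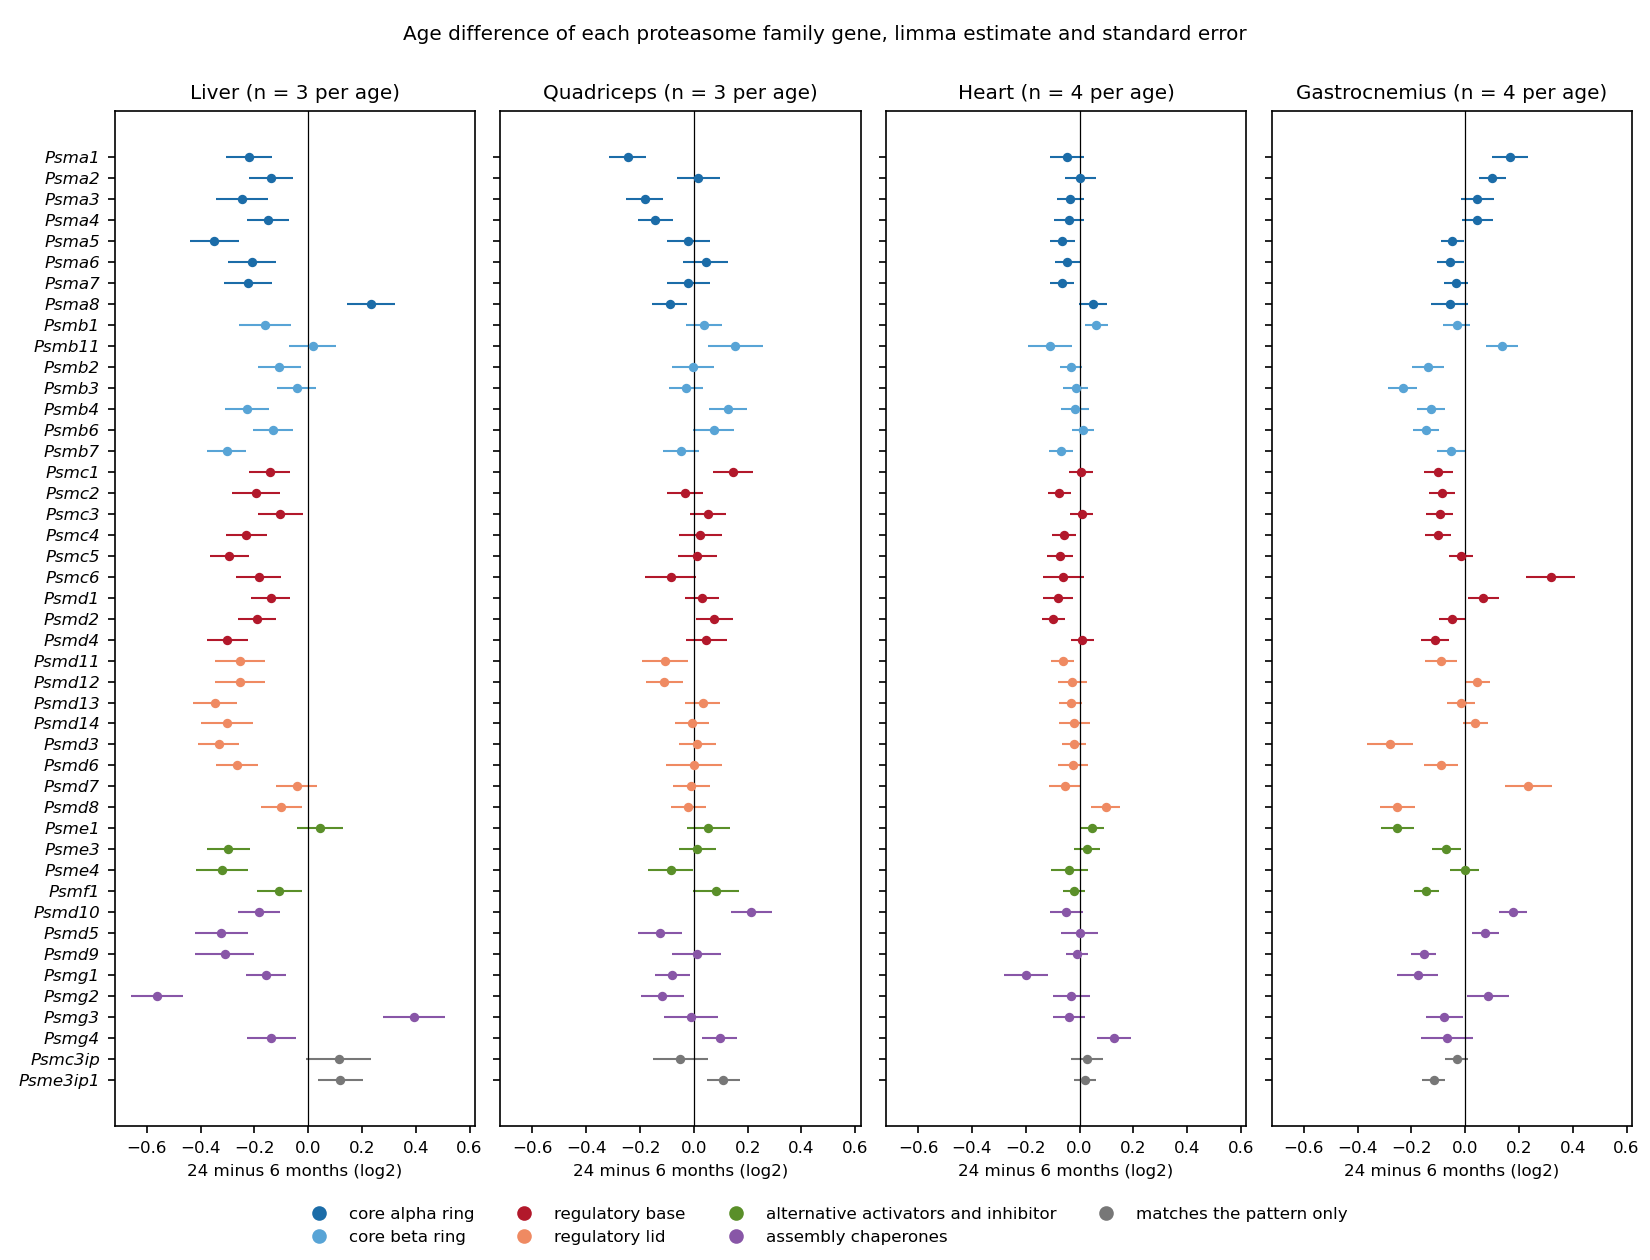
Difference between 24 and 6 months (log2, x axis) for each of the 45 genes (rows, coloured by role) in the 4 tissues, with the limma estimate as a point and its standard error as a bar. In liver 39 points lie below 0 with a median of -0.19, while in quadriceps the median is 0.00, in heart -0.03 and in gastrocnemius -0.06, and no single gene passed the adjusted threshold in any tissue.

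Nearly all genes of both particles had lower means in old liver. All 17 base and lid genes had a lower mean at 24 months, with a median difference of -0.23 and a range from -0.35 (Psmd13) to -0.04 (Psmd7), and in 14 of them the ages did not overlap. The core particle had a median difference of -0.16, with 13 of 15 genes lower and 9 wholly lower at 24 months. The other 2, the testis-type alpha subunit Psma8 and the thymus-type beta subunit Psmb11, were dim (below the median of all values at both ages). With dim genes left out, the medians were -0.21 for the core, over 13 genes, and -0.23 for the regulatory particle. Over all genes the median was then -0.09, and 67.1% had a lower mean, against 39 of the 41 proteasome genes still tested. The mean over the 17 regulatory genes was 9.73, 9.77 and 9.77 in the 6-month arrays and 9.50, 9.53 and 9.59 in the 24-month arrays, and the mean over the 15 core genes was 9.67, 9.69 and 9.71 against 9.50, 9.54 and 9.58. Both particle means were lower in all 3 old arrays than in all 3 young ones. The gap between the core and the regulatory mean of an array moved from -0.07 ± 0.01 to -0.00 ± 0.01 (SD, n = 3 each), a shift of 0.07 with no overlap, against shifts of -0.03 in quadriceps, 0.01 in heart and 0.01 in gastrocnemius, where the ages overlapped. Without Psma8 and Psmb11 the liver shift was 0.02 and the ages overlapped, with mean differences of -0.19 over 13 core genes and -0.22 over the regulatory genes. The gap is given as a description with no test, and the exclusion was chosen after the values were seen.

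**Figure D2:**
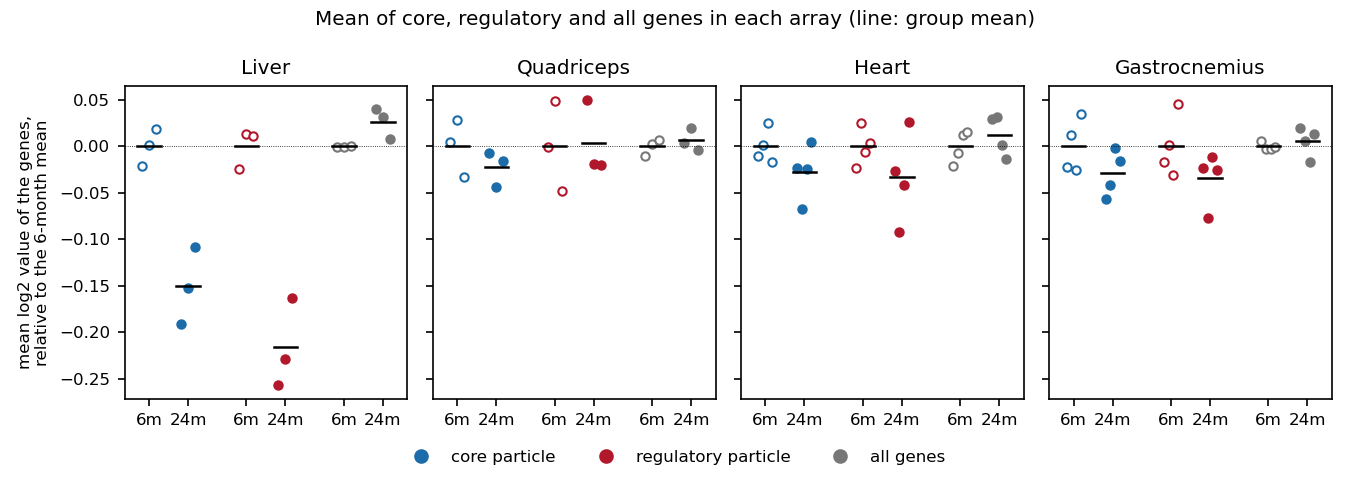
Mean log2 value of the 15 core genes, the 17 regulatory genes and all genes in each array (points; open at 6 months, filled at 24 months) relative to the 6-month mean of the tissue, with group means as lines. The old liver arrays lie at -0.19 to -0.11 for the core and at -0.26 to -0.16 for the regulatory particle, and in the other 3 tissues both particles stay between -0.09 and 0.05.

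The smallest p-values in liver belonged to genes of assembly, the lid and the catalytic ring. Psmg2, which with Psmg1 forms a chaperone of alpha-ring assembly, measured 8.45, 8.43 and 8.62 at 6 months and 7.79, 7.97 and 8.05 at 24 months. Every old array was below every young one, with a difference of -0.56 (SE 0.096, limma adjusted p = 0.054), or 1.48-fold. Psmd3, a scaffold subunit of the lid, measured 9.57, 9.58 and 9.51 against 9.16, 9.20 and 9.30, a difference of -0.33 (SE 0.077, adjusted p = 0.057). Psmd13, another lid scaffold, measured 9.35, 9.44 and 9.47 against 8.97, 9.12 and 9.13, a difference of -0.35 (SE 0.082, adjusted p = 0.057). The groups did not overlap for either gene. Psmb7, the beta subunit with trypsin-like activity, measured 10.14, 10.14 and 10.18 against 9.80, 9.87 and 9.88, a difference of -0.30 (SE 0.073, adjusted p = 0.058).

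The other catalytic genes differed less in liver. Psmb6, with caspase-like activity, measured 10.28, 10.33 and 10.32 at 6 months and 10.23, 10.11 and 10.20 at 24 months, a difference of -0.13 (limma adjusted p = 0.25). Psmb5, with chymotrypsin-like activity and measured singly on this array type alone, measured 11.90, 12.05 and 12.14 against 11.99, 11.88 and 11.84, a difference of -0.13 with overlapping ages (limma adjusted p = 0.34). Among the base ATPases the differences ran from -0.29 in Psmc5 to -0.10 in Psmc3. Psmd4, the ubiquitin receptor of the base, differed by -0.30, and Psmd14, the lid deubiquitinase, by -0.30, with no overlap in either. Psma5 had the lowest difference of the alpha ring, -0.35, while Psma8 was at 5.38, 5.45 and 5.25 against 5.60, 5.69 and 5.49, a difference of 0.23 with no overlap and an adjusted p of 0.12. Psmg3, a core assembly chaperone, was at 5.85, 5.88 and 6.00 against 6.55, 6.23 and 6.13, a difference of 0.39 (limma adjusted p = 0.071). Psma8 and Psmg3 belong to the dim classes 3 and 4 of 10 classes by level, in both of which the median of all genes was 0.18 higher in old liver. Of the activators, Psme3 and Psme4 differed by -0.30 and -0.32 with no overlap, and Psme1, a subunit of the interferon-responsive cap, by 0.04 with overlap.

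The calls in liver depended on the processing and on 1 array. The 24-month array numbered 3 lay closest to the young arrays for both particles, and without it limma called 18 proteasome genes lower and 1 higher (Psmg3), among 5073 of all genes (25.5%, with 11.1% lower and 14.3% higher). With an intensity trend and a robust prior 15 were called, all lower (11.3% of all genes were called, 6.34% lower). With each array centred on its median likewise 15 were called, all lower (9.84% of all genes, 8.09% lower). Leaving out dim genes, those whose mean lay below the median of all values at both ages, gave 12 of the 41 proteasome genes still tested, all lower, and 17% of all genes, 11.6% lower. Across these 4 settings 11 genes fell each time: Psma5, Psmb7, Psmc5, Psmd3, Psmd4, Psmd5, Psmd6, Psmd13, Psme3, Psme4 and Psmg2. Under quantile and cyclic loess normalization 0 were called, the medians of core and regulatory genes shrank to -0.08 and -0.13 and to -0.08 and -0.11, and 8 and 7 genes were lower at an unadjusted p under 0.05, against 11.5% and 11.8% of all genes. The mean was lower in 37 of the 45 genes under each of them, against 49.4% and 49.5% of all genes.

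Several other measures moved with age in the same liver arrays. The interquartile range of the genes was 2.64, 2.70 and 2.68 in the young arrays and 2.27, 2.34 and 2.54 in the old ones, and the median of all probe sets 6.47 to 6.48 against 6.54 to 6.62, with old array 3 nearest the young arrays on both. In the other 3 tissues the ages overlapped on both. In gastrocnemius only 24-month array 3 (range 2.78, median 4.88) overlapped the young arrays (2.73 to 2.78 and 4.88 to 4.92). The remaining old gastrocnemius arrays had ranges of 2.64, 2.655 and 2.64 and medians of 4.97, 4.95 and 4.96. Sorting all genes in liver into 10 classes by mean level, the median age difference was 0.18 in classes 3 and 4 and -0.14 and -0.08 in classes 9 and 10, the brightest, which hold 15 and 20 of the 45 genes. The exocrine pancreas markers (6 measured, 6 with a higher mean) averaged 6.12 to 6.23 at 6 months and 6.17 to 9.45 at 24 months, the highest value being that of array 2, without which the median differences of core and regulatory genes were -0.14 and -0.21. The leukocyte markers (7 of 8 higher) averaged 7.21 to 7.38 against 7.32 to 7.80, and the skeletal muscle markers (8 of 8 higher) 5.66 to 5.73 against 5.86 to 6.10, with the cardiomyocyte markers (7 of 8 higher) at 5.95 to 6.07 against 6.09 to 6.26. The means of the muscle and cardiomyocyte lists differed by 0.30 and 0.17. They lay at the levels of the dim classes 3 and 4 (5.38 to 6.26), where the median of all genes was 0.18 higher. The fibroblast markers (4 of 6 higher), adipocyte markers (4 of 6), red cell markers (1 of 2) and germ cell markers (4 of 4) overlapped between ages, as did the endothelial markers (1 of 5 higher) and the hepatocyte markers (2 of 7). The part of these in the proteasome result was not tested.

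Most chaperones and cofactors of the proteasome had lower means in the same liver samples, while the muscle ubiquitin ligases had no common direction. Of the heat shock chaperones, which hold or refold proteins that would otherwise be degraded, 10 of 10 had a lower mean, with a median of -0.69, and 1 fell: Hsp90aa1, the stress-inducible cytosolic chaperone, from 10.59, 10.72 and 10.95 to 10, 9.92 and 10.09, a difference of -0.75 (SE 0.11, limma adjusted p = 0.049). That call was lost with the replicate number as a block (limma adjusted p = 0.061), under quantile normalization, and when any 1 array other than 24-month array 3 was left out (limma adjusted p from 0.070 to 0.16). With centred arrays 8 of the 10 fell, while 9.84% of all genes were called, 8.09% lower. With dim genes left out 8 of the 10 fell too, while 17% of all genes were called, 11.6% lower. Without 6-month array 3 the median of the list was -0.48, with 10 of 10 lower. All 11 cofactors and regulators had a lower mean, with a median of -0.22, and 0 passed the limma threshold (7 lower and 0 higher at an unadjusted p under 0.05). Of all genes, 14.4% were lower and 18.4% higher at that unadjusted threshold. Uchl5, a deubiquitinase of the regulatory particle, had the lowest difference among them, -0.43 (adjusted p = 0.085). Of the 9 ubiquitin and delivery genes 8 had a lower mean and 0 were called (3 lower at an unadjusted p under 0.05), and the 3 immunoproteasome subunits differed by -0.15 to -0.02, with 0 called and 0 at an unadjusted p under 0.05. Of the 7 muscle ubiquitin ligases 4 had a higher and 3 a lower mean, from -0.40 in Fbxo30 to 0.50 in Fbxo40, and limma called 0, with 2 higher and 1 lower at an unadjusted p under 0.05.

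**Figure D3:**
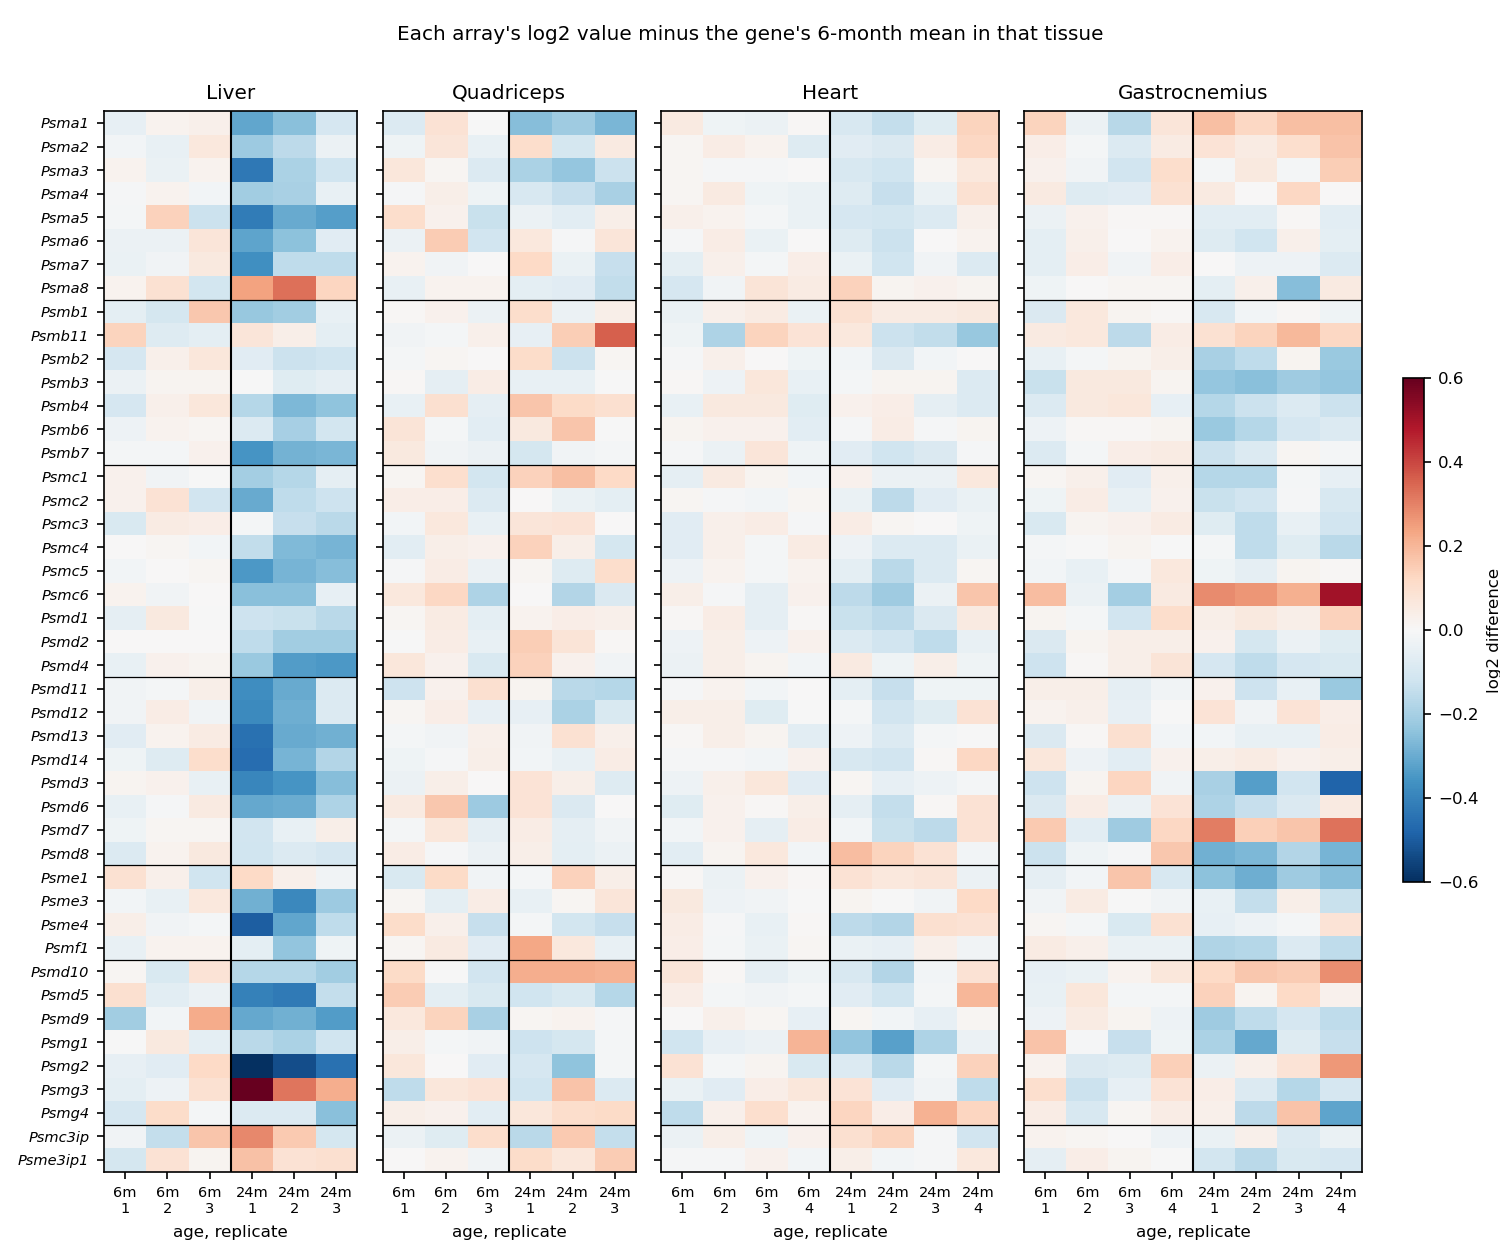
Each array's log2 value minus the gene's 6-month mean in the same tissue, for the 45 genes (rows, with lines between roles) and all arrays (columns, age and replicate), from blue (lower) to red (higher). The 24-month liver columns are blue over most of the core, regulatory and chaperone rows, palest in array 3, while Psma8 and Psmg3 are red in all 3, and in gastrocnemius Psmc6 is red and Psmb3, Psmd8 and Psme1 are blue in all 4 old arrays.

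In quadriceps the proteasome genes had no common direction with age. limma called 0 of 45, with 1 higher and 2 lower at an unadjusted p under 0.05, against 3.8% and 3.26% of all genes. The mean was lower in 22 genes and higher in 22, against 46.4% and 52.3% of all genes, with medians of -0.02 for the core and 0.01 for the regulatory particle. The 4 smallest p-values included 3 alpha-ring genes. Psma1 measured 10.46, 10.63 and 10.54 at 6 months and 10.29, 10.33 and 10.27 at 24 months, a difference of -0.25 (SE 0.070, adjusted p = 0.57). Psma3 measured 10.66, 10.60 and 10.51 against 10.40, 10.36 and 10.46, a difference of -0.18 (adjusted p = 0.66), and its other 2 probe sets differed by -0.16 and -0.22. Psma4 measured 9.42, 9.46 and 9.40 against 9.33, 9.29 and 9.23, a difference of -0.14 (adjusted p = 0.71).

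These 3 alpha subunits were lower in every old quadriceps array, and 4 genes in all were wholly lower and 4 wholly higher at 24 months, against 5.33% and 6.69% of all genes. Psmd10, a chaperone of base assembly also called gankyrin, was higher in all old arrays, at 8.08, 7.96 and 7.85 against 8.18, 8.18 and 8.17, a difference of 0.21 (limma adjusted p = 0.63). The catalytic genes Psmb5, Psmb6 and Psmb7 differed by -0.01, 0.07 and -0.05, with overlapping ages. In the same samples the heat shock chaperones had a lower mean in 10 of 10 genes, with a median of -0.37, and 0 were called by limma (5 lower at an unadjusted p under 0.05). The list mean was 9.24, 9.29 and 9.96 at 6 months and 9.13, 9.19 and 9.08 at 24 months, and without 6-month array 3 the median was -0.13, with 9 of 10 lower. Chordc1, a cofactor of the chaperone Hsp90, was at 8.70, 8.67 and 8.67 against 8.22, 8.23 and 8.47, a difference of -0.37 (limma adjusted p = 0.56). Hsph1, a nucleotide exchange factor of Hsp70, was at 8.77, 8.74 and 9.09 against 8.52, 8.57 and 8.44, a difference of -0.36 (limma adjusted p = 0.57), or -0.25 without 6-month array 3. The fibroblast markers of the same arrays (6 of 6 with a lower mean) averaged 8.92 to 9.05 at 6 months and 8.74 to 8.87 at 24 months. Single arrays stood apart on other lists: 24-month array 1 was at 8.77 for hepatocyte markers (6.61 and 6.85 in the other old arrays) and 7.10 for red cell markers (6.25 and 6.34), and 6-month array 3 at 7.55 for adipocyte markers (8.79 and 8.82). The part of these in the quadriceps values was not tested.

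In heart the age differences were small throughout. limma called 0 of 45, with 0 higher and 1 lower at an unadjusted p under 0.05, against 3.89% and 2.1% of all genes. The mean was lower in 31 genes and higher in 13, against 43.2% and 55.3% of all genes, the medians were -0.04 for the core and -0.03 for the regulatory particle, and no difference went beyond -0.20 or 0.13. Psmg1, the partner of Psmg2 in alpha-ring assembly, measured 7.38, 7.45, 7.46 and 7.70 at 6 months and 7.26, 7.17, 7.31 and 7.46 at 24 months, a difference of -0.20 (SE 0.082, adjusted p = 0.80). Psmd2, a scaffold of the base, measured 9.76, 9.83, 9.76 and 9.82 against 9.71, 9.68, 9.64 and 9.75, a difference of -0.10 (adjusted p = 0.83). Its ages did not overlap, as in 3 genes in all, while those of Psmg1 did. That is 3 genes wholly lower and 0 wholly higher, against 1.36% and 1.94% of all genes.

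Among the heart genes with a higher mean, Psmg4, the partner of Psmg3, measured 6.07, 6.25, 6.32 and 6.24 against 6.35, 6.26, 6.43 and 6.35, a difference of 0.13 (limma adjusted p = 0.86). Psmd8, a lid subunit, measured 8.12, 8.20, 8.25 and 8.17 against 8.37, 8.32, 8.27 and 8.17, a difference of 0.10 (limma adjusted p = 0.91). Both overlapped between ages. Psmb6 and Psmb7 differed by 0.01 and -0.07, and the 3 immunoproteasome subunits by 0.08 to 0.11 with 0 called by limma and 0 at an unadjusted p under 0.05. Of the cofactors, Sem1, a small subunit of the lid, was higher in every old array, at 7.82, 7.88, 7.81 and 7.79 against 7.90, 7.91, 7.92 and 8.01, with a difference of 0.11 (limma adjusted p = 0.79). Hsph1 was at 7.35, 7.53, 7.89 and 7.37 against 7.21, 7.33, 7.11 and 7.37, a difference of -0.28 with overlap (limma adjusted p = 0.80), and of -0.16 without 6-month array 3. In the old heart arrays the hepatocyte markers had a lower mean in 7 of 7 genes (5.52 to 6.40 against 5.15 to 5.41), the endothelial markers in 5 of 5 (9.26 to 9.34 against 9.16 to 9.21) and the cardiomyocyte markers in 6 of 7 (11.76 to 11.85 against 11.42 to 11.78). The median difference of the cardiomyocyte markers was -0.07, with -1.045 in Nppa alone. That of the hepatocyte markers was -0.29, with -2.32 in Alb. The part of these lists in the proteasome values was not tested.

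In gastrocnemius single subunits went in opposite directions. limma called 0 of 45, with 5 higher and 11 lower at an unadjusted p under 0.05, against 7.44% and 9.05% of all genes. The mean was lower in 32 genes and higher in 13, against 44% and 55% of all genes, with medians of -0.05 for the core and -0.09 for the regulatory particle, and 7 genes were wholly lower and 3 wholly higher at 24 months, against 4.78% and 3.86% of all genes. With all genes sorted into 10 classes by level, the median age difference was 0.055 in class 1, the dimmest. It was -0.05 and -0.08 in classes 9 and 10, the brightest, which hold 11 and 24 of the 45 genes. With dim genes left out, 30 of the 42 genes still tested had a lower mean, against 58.4% of all genes, whose median was -0.025. Psmb3, a non-catalytic beta subunit, measured 8.01, 8.20, 8.20 and 8.16 at 6 months and 7.91, 7.89, 7.93 and 7.91 at 24 months, a difference of -0.23 (SE 0.054, adjusted p = 0.11). Psme1 measured 8.19, 8.23, 8.41 and 8.15 against 8, 7.95, 8.03 and 7.99, a difference of -0.25 (SE 0.061, adjusted p = 0.12). Psmd8 measured 9.92, 10.02, 10.04 and 10.21 against 9.76, 9.78, 9.87 and 9.77, a difference of -0.25 (SE 0.065, adjusted p = 0.13).

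All old gastrocnemius arrays were below all young ones for those 3 genes. Psmc6, a base ATPase, lay the other way, at 10, 9.78, 9.61 and 9.87 against 10.10, 10.08, 10.03 and 10.32, a difference of 0.32 (SE 0.091, limma adjusted p = 0.16) with no overlap. Within the lid the differences ran from -0.28 in Psmd3 to 0.24 in Psmd7. Of the catalytic genes, Psmb6 measured 8.64, 8.68, 8.68 and 8.69 against 8.45, 8.50, 8.57 and 8.59, a difference of -0.15 with no overlap (limma adjusted p = 0.19), and Psmb7 differed by -0.05 with overlap. In the beta ring 6 of 7 genes had a lower mean, and in the alpha ring 4 of 8. The sign of the medians depended on the scaling: with quantile normalization they were 0.02 for the core and 0.00 for the regulatory particle, and with cyclic loess 0.02 and -0.02. Quantile normalization also turned the unadjusted split to 9 higher and 6 lower, against 7.66% and 7.6% of all genes. Cyclic loess turned it to 8 and 6, against 7.67% and 7.77%. The mean was then lower in 21 and 23 of the 45 genes, against 50.3% and 49.7% of all genes.

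Around the proteasome in gastrocnemius, Ubqln4, a shuttle that delivers ubiquitinated proteins, measured 8.51, 8.70, 8.72 and 8.76 against 8.33, 8.32, 8.45 and 8.31, a difference of -0.32 with no overlap (limma adjusted p = 0.10). Sem1 measured 7.21, 7.38, 7.45 and 7.37 against 6.95, 7, 7.24 and 7.06, a difference of -0.29 (limma adjusted p = 0.13). Of the 6 muscle ubiquitin ligases measured, 0 were called by limma and 1 was higher at an unadjusted p under 0.05, and the differences ran from -0.22 in Trim63 to 0.21 in Fbxo30. The leukocyte markers had a higher mean in 8 of 8 genes in the old gastrocnemius (list means 5.88 to 6.12 against 5.94 to 6.74), the endothelial markers a lower mean in 5 of 5 (7.70 to 8.01 against 7.40 to 7.87) and the fibroblast markers a lower mean in 4 of 5 (8.20 to 8.46 against 7.99 to 8.21). The skeletal muscle fibre markers had a lower mean in 7 of 8, with a median difference of -0.07 (13.09 to 13.18 against 13.01 to 13.15). The cardiomyocyte markers had a higher mean in 7 of 7 (5.80 to 6.00 against 5.79 to 6.09) and the adipocyte markers in 5 of 6 (6.42 to 6.52 against 6.46 to 6.71). Their part in the proteasome values was not tested.

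The age differences of paired tissues were compared by an interaction term within each array type. Between liver and quadriceps limma called 0 of 45 (0.0151% of all genes were called), with 14 lower and 2 higher in liver at an unadjusted p under 0.05, against 9.39% and 10.4% of all genes. The smallest p-values belonged to Psmd13 (-0.35 in liver and 0.03 in quadriceps, difference -0.38, limma adjusted p = 0.11), Psmd10 (-0.18 and 0.21), Psmd3 (-0.33 and 0.01) and Psmg2 (-0.56 and -0.12). Without the liver 24-month array 3, limma called 3 genes, Psmd13, Psmd3 and Psmg2, while 7.34% of all genes were called, so the share of the 45 was near the background. Between heart and gastrocnemius limma called 0 of 45 (0.595% of all genes, 0.489% higher in heart), with 8 higher and 5 lower in heart at an unadjusted p under 0.05, against 8.83% and 4.92%. Psmd8 (0.10 in heart and -0.25 in gastrocnemius, difference 0.35, SE 0.085, limma adjusted p = 0.078) and Psme1 (0.05 and -0.25, difference 0.30, limma adjusted p = 0.079) came nearest the threshold, followed by Psmb3 (-0.02 and -0.23) and Psmc6 (-0.06 and 0.32). Psmd8 alone was called when heart 24-month array 4 (0.695% of all genes called) or gastrocnemius 24-month array 3 (1.82%) was left out. It was called together with Psmb3 without gastrocnemius 6-month array 1 (1.06%), and together with Psme1 when dim genes were left out (2.85%, with 42 of the 45 genes tested).

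Far more of these genes passed the test between tissues at 6 months than between ages, and the same held for all genes. In heart against gastrocnemius, limma called 40 of 45 genes, 30 lower and 10 higher in heart, while 75.5% of all genes were called, 14.7% lower and 60.8% higher. The regulatory particle was lower in heart in 16 of 17 genes, with a median difference of -0.42, and the core in 10 of 15, with a median of -0.22, while the median over all genes was 0.27 in the other direction. Quantile normalization moved that median to -0.01 and the split of the calls to 33 lower and 6 higher, and centring the arrays moved them to -0.05 and to 38 and 5. The shares of all genes above belong to the values as deposited. They are no background for the rescaled counts or for the counts under all scalings. Psmc3ip and Psme3ip1 are among the 40, and the other 43 genes gave 29 lower and 9 higher. The same 30 genes were lower under all 3 scalings (as deposited, quantile and centred), among them 16 regulatory and 10 core genes, and 5 were higher under all 3: Psma8, Psmb11, Psme1, Psmg1 and Psmg4. The call turned from higher to lower for Psmb2 with centred arrays and for Psmc3ip and Psmg3 under both other scalings.

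Among the 45 genes, the widest difference between heart and gastrocnemius lay in the lid. Psmd8 measured 8.12, 8.20, 8.25 and 8.17 in young heart and 9.92, 10.02, 10.04 and 10.21 in young gastrocnemius, a difference of -1.86 (SE 0.060, limma adjusted p = 9.39e-14), or 3.64-fold. Psmd6, another lid scaffold, measured 8.17, 8.27, 8.25 and 8.28 against 9.41, 9.54, 9.46 and 9.58, a difference of -1.26 (SE 0.061, adjusted p = 1.76e-11), or 2.39-fold. Psmd7, the partner of Psmd14, differed by -0.84, and Psmb7 by -0.70, at 9.44, 9.41, 9.52 and 9.42 against 10.07, 10.14, 10.19 and 10.20. None of these 4 genes overlapped between the tissues at either age. Psmd13, the 1 regulatory gene not called, differed by 0.10 (limma adjusted p = 0.059). The catalytic gene Psmb6 was lower in heart by a smaller margin, with a difference of -0.17 (limma adjusted p = 0.0016).

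Higher in heart were Psma8 (4.70 ± 0.08 against 3.81 ± 0.02, SD, n = 4 each, difference 0.90) and Psmb11 (5.56 ± 0.14 against 4.76 ± 0.11, difference 0.80), the testis-type and thymus-type subunits, both dim and dropped when dim genes are left out. Psma8 lay below the median of all probe sets in both tissues and Psmb11 in gastrocnemius, and whether either was above background was not tested. Psme1 measured 9.07, 9.03, 9.09 and 9.07 in heart and 8.19, 8.23, 8.41 and 8.15 in gastrocnemius, a difference of 0.82 (SE 0.052, limma adjusted p = 5.6e-10), or 1.77-fold. The 3 immunoproteasome subunits, which are interferon-responsive like Psme1, were also higher in heart, by 0.67 (Psmb8), 0.67 (Psmb9) and 1.08 (Psmb10), and were called higher under all 3 scalings. Psmg1 differed by 0.67 and Psmg4 by 0.61, and the inhibitor Psmf1 by 0.43, the last not called with centred arrays (0.11). For Psme1 the tissues were apart at the other age too, where every heart array at 24 months (9.03 to 9.15) lay above every gastrocnemius array (7.95 to 8.03).

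**Figure D4:**
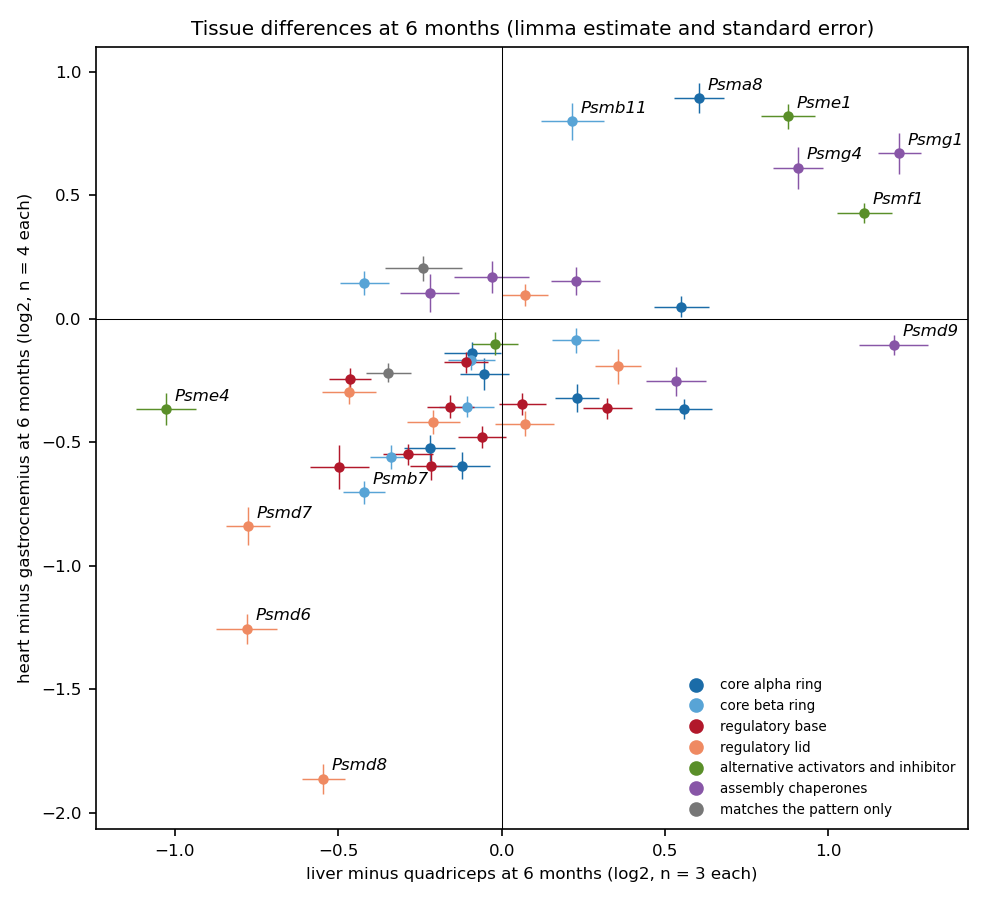
Difference between liver and quadriceps (x axis, n = 3 each) and between heart and gastrocnemius (y axis, n = 4 each) at 6 months for the 45 genes on the log2 scale, coloured by role, with standard errors as bars and the largest differences named. Psmd6, Psmd7, Psmd8 and Psme4 lie lower left and Psmg1, Psmg4 and Psme1 upper right under all 3 scalings tried, while the call of Psmb4 turns with the scaling on the x axis and those of Psmb2, Psmc3ip and Psmg3 on the y axis.

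In liver against quadriceps at 6 months limma called 30 of 45 genes, 16 lower (with Psme3ip1 among them) and 14 higher in liver, while 68.2% of all genes were called, 27.5% lower and 40.7% higher. The share of the 45 called in either direction was thus near that of all genes. The split moved to 30 lower and 9 higher with quantile normalization and to 22 and 11 with centred arrays, as the median over all genes moved from 0.10 to -0.06 and -0.02. Of all 19928 genes, 7708 were called lower and 6166 higher with quantile normalization, and 6936 and 6746 with centred arrays. The same 16 genes were lower under all 3 scalings, 9 of them regulatory and 4 core, and 9 were higher, of which 3 were core, 0 regulatory and 4 assembly chaperones. The call of Psmb4 turned from higher to lower with quantile normalization. Psme4, an activator that caps the core in place of the regulatory particle, measured 10.28, 10.22 and 10.23 in liver and 11.38, 11.30 and 11.13 in quadriceps, a difference of -1.03 (SE 0.092, limma adjusted p = 2.17e-07), or 2.04-fold. Psmd6 differed by -0.78, Psmd7 by -0.78 and Psmd8 by -0.55, each with every liver array below every quadriceps array.

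Among the 45 genes, the largest differences in the direction of liver lay in assembly chaperones and the inhibitor. Psmg1 measured 8.84, 8.90 and 8.78 in liver and 7.66, 7.61 and 7.60 in quadriceps, a difference of 1.22 (SE 0.066, limma adjusted p = 7.6e-10), or 2.32-fold. Psmd9, a base chaperone, measured 8.15, 8.34 and 8.58 against 7.22, 7.29 and 6.96, a difference of 1.2, and Psmf1, which encodes an inhibitor of the core, 9.44, 9.51 and 9.51 against 8.39, 8.43 and 8.31, a difference of 1.11. Psmg4 differed by 0.91 and Psme1 by 0.88, while Psmg2, the partner of Psmg1, differed by -0.22 and Psmg3, the partner of Psmg4, by -0.03. Each of the first 5 genes was separated between the tissues in all arrays. Of the catalytic genes, Psmb7 differed by -0.42, Psmb5 by -0.21 and Psmb6 by -0.09, the last not called (limma adjusted p = 0.26) but called lower under both other scalings. Psme2, the partner of Psme1 measured singly on this array type alone, differed by 1.58, and Psmb8, Psmb9 and Psmb10 by 0.69, 0.98 and 0.80, all 4 called higher under the 3 scalings.

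**Figure D5:**
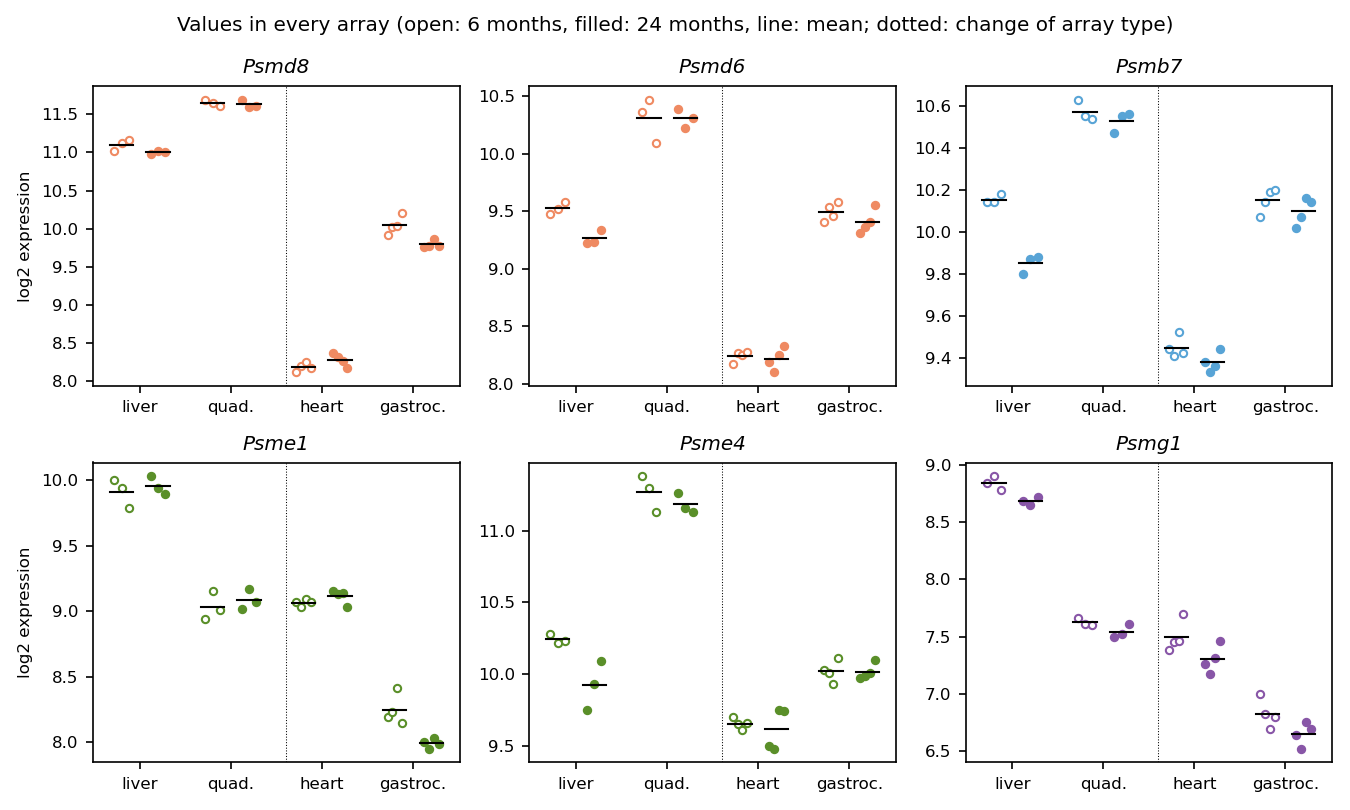
Log2 expression of Psmd8, Psmd6, Psmb7, Psme1, Psme4 and Psmg1 in every array of the 4 tissues (open at 6 months, filled at 24 months, lines at the means); values left and right of the dotted line come from different array types and cannot be compared. Psmd8 in heart lies at 8.12 to 8.37 at both ages while gastrocnemius lies at 9.76 to 10.21, and Psmb7 is lower in the old liver arrays, at 9.80 to 9.88 against 10.14 to 10.18.

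Of the genes that match the symbol pattern alone, Psmc3ip, a cofactor of meiotic recombination, and Psme3ip1, an interactor of the activator Psme3, had means 0.11 and 0.12 higher in old liver with overlapping ages. Psme3ip1 was lower in liver than in quadriceps (-0.35) and in heart than in gastrocnemius (-0.22) under all 3 scalings. On the liver and quadriceps array type, 5 genes had further probe sets. In liver these differed between ages by amounts near that of the probe set used in Psma3 (-0.23 and -0.24), Psma5 (-0.37) and Psmd2 (-0.22), by -0.26 against -0.14 in Psmc1, and in the other direction in Psmb3 (0.10 against -0.04).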

How the data were processed

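Per the labels' protocols, total RNA was amplified with a whole-transcript kit and hybridised to Affymetrix arrays. The authors deposited log2 expression values per probe set in 1 table per array type. The submitters' processing notes name RMA, without a version, a method of background correction, quantile normalization and probe summary. A shift common to most genes can be lost in such values. The sources used here do not give the set of arrays that was normalized jointly. The first table (liver, quadriceps) holds 28944 probe sets, 21797 with 1 symbol, 1613 with several and 5534 with none, the second (heart, gastrocnemius) 65956, with 30604, 2146 and 33206. Symbols were updated through a RefSeq table (GRCm38.p6), and each gene was given by its probe set of highest mean, leaving 19928 and 30063 genes. Columns without a sample numbered 0. Tests used R 4.3.3 with limma 3.58.1 (lmFit, eBayes, two-sided, Benjamini-Hochberg over all genes of the table, threshold 0.05), per tissue for age and in a 4-group fit for tissue and interaction, and were tested on simulated data. Named are, per tissue, the genes past the threshold or else the 4 of smallest p, the catalytic genes, the 4 largest tissue differences each way, the 4 smallest interaction p-values and, of related genes, those past the threshold or else the 2 of smallest p. Genes named as the end of a range, for a changed call or for their role were picked with their values known. The members and lists were chosen with earlier results of these data known. Alternatives were quantile normalization, median centring, cyclic loess (3 iterations, age comparisons only), dim genes left out, the mean over probe sets, a robust prior with an intensity trend, the replicate number as a block and leaving out each array. Chosen after seeing the data were the gap between particles without dim core genes, counts without the 2 pattern-only genes, and the related genes and heat shock list under these settings.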

Additional observations from a re-analysis of the deposited data

Results flagged for a closer look

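In heart and gastrocnemius, 60 groups of 4 arrays were examined (the named genes and the particle means at each age), and 5 held an array far from the others by Dixon's criterion, which chance meets in about 1 group in 20. Psmb11 was at 4.60 in 1 young gastrocnemius array and at 4.80 to 4.82 in the others. Psmd2 was at 9.95 in 1 young gastrocnemius array against 10.05 to 10.07. Psmb6 was at 8.44 in 1 young heart array against 8.52 to 8.53. Psma8 was at 4.84 in 1 old heart array against 4.72 to 4.73. Psme1 was at 9.03 in 1 old heart array against 9.13 to 9.15.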

How the results depend on the processing

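No proteasome gene was called between ages in quadriceps, heart or gastrocnemius under any alternative. In liver 15 were called with centred arrays, 12 with dim genes left out and 15 with an intensity trend and robust prior, and leaving out 1 array gave 0 to 19, with only 24-month array 3 above 0. The liver core median was -0.084 with quantile normalization, -0.25 with centring, -0.081 with cyclic loess and -0.21 without dim genes, and the regulatory median -0.13, -0.32 and -0.11 under the first 3. Without 1 array the liver core median ran from -0.22 to -0.14, the heart core median from -0.06 to -0.012 and the regulatory median from -0.066 to -0.01 (both lowest without 24-month array 4) and the gastrocnemius regulatory median from -0.091 to -0.046 (highest without 24-month array 4). In gastrocnemius, quantile normalization gave medians of 0.019 (core) and 0.0042 (regulatory), and cyclic loess 0.019 and -0.015. The interaction gave 2 genes for heart against gastrocnemius without dim genes (2.85% of all genes called), and 0 to 2 without 1 array, against 0 to 3 for liver and quadriceps, the 3 beside 7.34% of all genes. The cause of these changes was not tested.

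The calls over all genes in liver were 8 (quantile), 1960 (centred), 99 (cyclic loess), 1764 (dim genes left out) and 2243 (trend and robust prior), and 0 to 5073 without 1 array. In quadriceps they were 9 without dim genes and 18 with the trend, and 0 without any array. In heart they were 4 (quantile), 6 (centred), 21 (dim) and 14 (trend), and 0 to 5 without 1 array. In gastrocnemius they were 1 (centred), 81 (dim) and 9 (trend), and 0 to 70 without 1 array, the highest without 6-month array 4. With the replicate number as a block, 0 genes were called in each tissue and the proteasome counts stayed at 0. Same-numbered arrays of both ages correlated in their deviations by -0.22 to 0.30. In no tissue was every pair above 0.1, so the numbers were not taken as pairs. Gastrocnemius numbers 1, 3 and 4 (0.13, 0.21 and 0.30) each matched their own number best, a hint from the data and not from the design.

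Of 827 comparisons of 49 named results with an alternative, 796 kept their direction and side of the threshold, 25 passed it newly and 6 changed sign without a call. Those were quadriceps Psmb5 (0.0083 with quantile normalization, and -0.03 to 0.02 without 1 array, above 0 without 6-month array 3), heart Psmb6 (-0.0075 with centring, and -0.0092 to 0.021 without 1 array, below 0 without 6-month array 4) and gastrocnemius Psmb7 (0.044 with quantile normalization, 0.022 with cyclic loess). Cyclic loess was run on the age comparisons within a tissue only. With 3 or 4 arrays per age, the number of arrays limits what could be called.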
